A study of Mus musculus with 9 samples.

Results

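The C-type lectin receptors described here are 9 genes of the myeloid branch of the family: Clec4n, Clec4d, Clec4e, Clec7a, Clec5a, Clec4a1, Clec4a2, Clec4a3 and Clec12a. They were chosen from the family by name, with earlier results of these data known, so their differences between genotypes are a description and carry no test. All 9 were found among the 27179 counted genes, and all 9 passed the filter on low counts, which kept 12840 genes. Polyadenylated RNA came from alveolar macrophages that had been purified by flow cytometry from the lungs of C57BL/6 mice at 1 week of age, and 85-base single reads were counted per gene. The groups were Suz12 cKO (5 libraries; Suz12, which encodes a subunit of the Polycomb repressive complex PRC2, is conditionally deleted) and wild type (4 libraries). Not given in the sources used here are the Cre driver, the deleted exons, the sorting gate, the sex of the animals, any allele that the wild type animals carry, and whether a library held 1 mouse or a pool. The series text calls the libraries biological replicates, and p-values measure only the spread between these libraries.

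C-type lectin receptors are membrane proteins that bind sugars, lipids or other ligands on microbes and damaged cells. Activating members signal through the kinase Syk, either by a tyrosine motif of their own or through an adaptor such as Fcer1g or Tyrobp, and the Card9, Bcl10 and Malt1 complex then drives NF-kB and cytokine genes. Inhibitory members carry a motif that recruits the phosphatases Ptpn6 and Ptpn11. In the lung these receptors are known for the recognition of fungi and mycobacteria by macrophages.

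All 9 genes lie on mouse chromosome 6 of GRCm38.p6. Clec4a1, Clec4a3, Clec4a2, Clec4n, Clec4d and Clec4e lie in this order within 368 kb, from position 122921848 to 123289871. Clec12a and Clec7a lie within 123 kb, from 129349783 to 129472785, and Clec5a lies apart from both groups at 40574898 to 40585805. The RefSeq table of GRCm38.p6 held a promoter window of 250 bases before and 50 bases after the start for 8 of the 9. The ratio of observed to expected CpG was 0 to 0.379 in these 8 windows, all below the median of 0.389 over 27025 windows. Their GC content was 36.0% to 54.3%, beside a median of 52.7%.

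Promoter windows of 4 genes are printed because they bear on the genes singled out later: the neighbours Clec4d and Clec4e, whose levels moved together between libraries, Clec4a2, which was lower in Suz12 cKO, and Clec5a, which was higher. They run 5′ to 3′ on the strand of the gene. The windows are chr6:123261857-123262156 on the plus strand for Clec4d, chr6:123289822-123290121 on the minus strand for Clec4e, chr6:123122440-123122739 on the plus strand for Clec4a2 and chr6:40585756-40586055 on the minus strand for Clec5a. Capitals mark matches, on either strand, to the letters TGANTCA (AP-1), GAGGAAG (PU.1) or TTGCNNAA (C/EBP).
Clec4d: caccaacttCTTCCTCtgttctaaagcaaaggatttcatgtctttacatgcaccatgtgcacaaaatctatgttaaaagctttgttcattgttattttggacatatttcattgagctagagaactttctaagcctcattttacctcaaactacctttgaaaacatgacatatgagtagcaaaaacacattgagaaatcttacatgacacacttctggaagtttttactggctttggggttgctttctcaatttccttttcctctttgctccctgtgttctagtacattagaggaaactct
Clec4e: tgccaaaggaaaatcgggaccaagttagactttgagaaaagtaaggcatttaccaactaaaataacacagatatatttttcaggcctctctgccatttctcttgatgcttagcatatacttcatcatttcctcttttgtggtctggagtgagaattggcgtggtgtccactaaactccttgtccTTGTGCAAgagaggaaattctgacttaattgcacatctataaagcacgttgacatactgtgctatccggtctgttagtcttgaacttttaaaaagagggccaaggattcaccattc
Clec4a2: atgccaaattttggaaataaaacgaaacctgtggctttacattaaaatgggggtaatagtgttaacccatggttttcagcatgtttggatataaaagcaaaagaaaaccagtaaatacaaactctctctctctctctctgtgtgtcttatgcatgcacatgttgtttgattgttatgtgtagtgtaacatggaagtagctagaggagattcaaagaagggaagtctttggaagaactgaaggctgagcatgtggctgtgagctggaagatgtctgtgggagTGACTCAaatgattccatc
Clec5a: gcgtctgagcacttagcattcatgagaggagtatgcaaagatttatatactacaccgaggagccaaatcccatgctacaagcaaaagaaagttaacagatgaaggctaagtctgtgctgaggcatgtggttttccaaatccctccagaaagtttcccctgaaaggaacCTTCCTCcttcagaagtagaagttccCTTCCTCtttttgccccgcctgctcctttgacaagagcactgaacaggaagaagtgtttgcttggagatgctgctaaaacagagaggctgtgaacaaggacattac
Among the 8 windows, GAGGAAG was found in 4, beside 13.5% of all windows. TGANTCA was found in 2 of the 8 and in 7.93% of all windows, and TTGCNNAA in 2 of the 8 and in 10.8% of all. Clec4d held a match to GAGGAAG and none to TTGCNNAA, whereas Clec4e held a match to TTGCNNAA and none to GAGGAAG. Clec5a held GAGGAAG at 2 places and Clec4a2 held TGANTCA downstream of its start. A match of letters is a description and not a site.

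The libraries held 18.6 to 45.6 M counts (M, 1e6) in Suz12 cKO and 13.8 to 25.3 M in wild type. Genes with any count numbered 15364 to 16757 in Suz12 cKO and 12396 to 13372 in wild type, with no overlap. Depth did not order them, since wild type library 4 (25.3 M) had 13168 and Suz12 cKO library 4 (18.6 M) had 15480. The part of this difference in genes with few or no counts in wild type was not tested. Suz12 was lower in every Suz12 cKO library (11.9 to 21.8 CPM, counts per 1e6 of the scaled library) than in every wild type library (51.7 to 76.6 CPM). Markers of alveolar macrophages summed to 17876 to 44463 CPM in Suz12 cKO and 25514 to 64102 CPM in wild type, a sum in which Chil3 varied most (5453 to 32245 CPM in Suz12 cKO and 13734 to 50836 CPM in wild type). Of these 13 markers Fabp1 (-1.73), Car4 (-0.96) and Krt79 (-0.53) were called lower and Marco (0.54) higher, without overlap. Among 11 neutrophil markers the sum was 77.4 to 203 CPM in Suz12 cKO and 73.6 to 98.6 CPM in wild type, and Ly6g was at 0 in every library except Suz12 cKO library 1 (0.021 CPM). Of the 8 neutrophil markers tested, only Csf3r was called, higher in Suz12 cKO (1.25) and without overlap. Mmp8 (-0.99) and Retnlg (-1.88) went the other way and were not called. The sum of 10 markers of interstitial macrophages was 19.9 to 28.0 CPM in Suz12 cKO and 8.13 to 13.4 CPM in wild type, with no overlap. The part of these other cells in the results was not tested. In bulk samples, fewer cells of a type and less RNA per cell cannot be told apart.

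Among the 9 receptors, Clec4n, Clec4a2 and Clec7a were lower and Clec5a was higher in Suz12 cKO at an adjusted p under 0.05, the threshold of the edgeR quasi-likelihood test over all genes. Clec4n, Clec4a2 and Clec5a had no overlap between the groups. The other 5 were not called. Over all 12840 tested genes, 19.9% were called, 8.97% higher and 11% lower, and the groups did not overlap for 20.8%. Because the genes were chosen with this contrast known, nothing is read from these counts. The median log2 fold change was -0.13 over the 9 receptors and 0.04 over all tested genes.

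**Figure D1:**
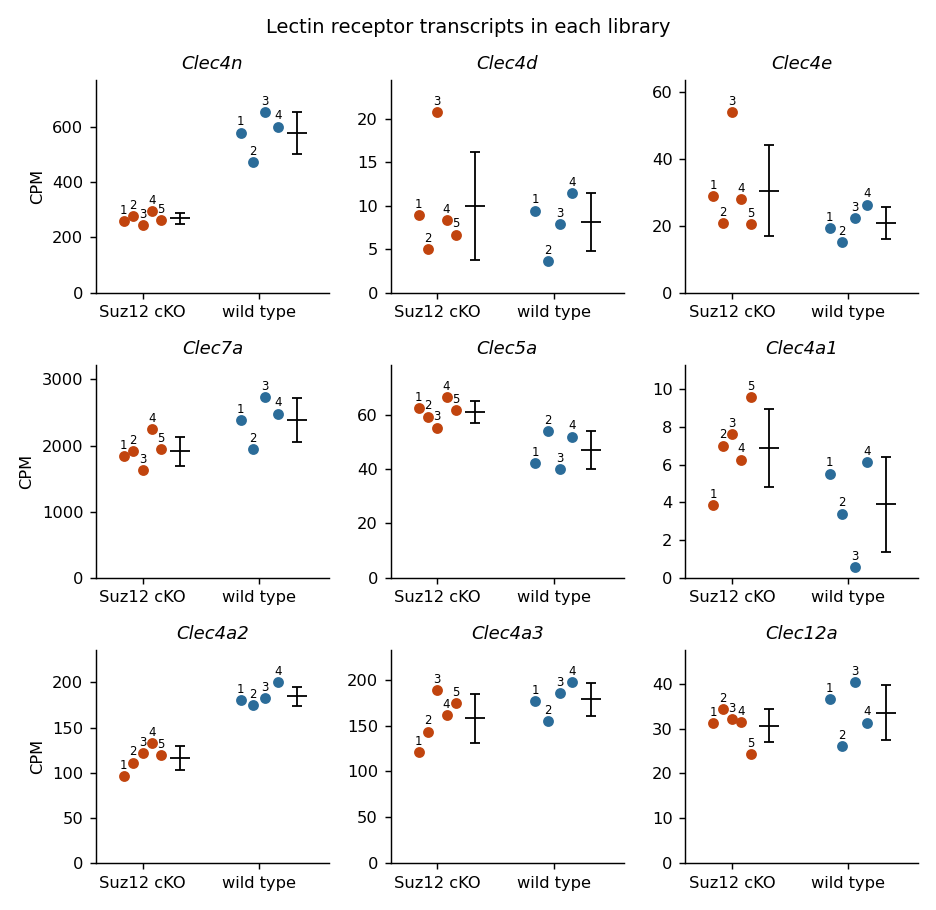
Each panel plots the level of 1 receptor in CPM (vertical axis, from 0) in the 5 Suz12 cKO libraries (left, red) and the 4 wild type libraries (right, blue), numbered by replicate, with the mean and SD as a bar beside them. The groups are apart for Clec4n, Clec4a2 and Clec5a, and library 3 of Suz12 cKO stands above the rest for Clec4d and Clec4e.

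Clec4n encodes dectin-2, a receptor for fungal mannans that signals through Fcer1g. It had 260, 279, 246, 296 and 264 CPM in the Suz12 cKO libraries, against 580, 473, 654 and 602 CPM in the wild type libraries. Every Suz12 cKO library lay below every wild type library, and the lowest wild type library was replicate 2. The mean was 269 ± 19.2 CPM in Suz12 cKO (SD, n = 5) and 577 ± 76.2 CPM in wild type (SD, n = 4) (log2 fold change -1.10, SE 0.095). It was called in 9 of 9 fits with a library left out (-1.18 to -1.02). With the planned and the centred gene length offset, both described with the adaptors, it was -1.14 and -0.84 and was called.

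Clec7a encodes dectin-1, the receptor for fungal beta-glucan, which carries a tyrosine motif of its own. It was the most abundant of the 9. Its level was 1838, 1910, 1630, 2245 and 1948 CPM in Suz12 cKO and 2387, 1946, 2729 and 2485 CPM in wild type. The groups overlapped, since Suz12 cKO libraries 4 and 5 lay above wild type library 2. The log2 fold change was -0.32 (SE 0.11). With a library left out it lay between -0.40 and -0.23 and was called in 2 of 9 fits, those without Suz12 cKO library 4 or wild type library 2. It was not called with scaling by library size alone, with a filter of at least 1 CPM in at least 4 libraries, or with the centred gene length offset described with the adaptors. Nor was it called with the replicate number as a block (-0.32).

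The counts of Clec4n and Clec7a can be set against each other within each library, where no scaling enters. The ratio of Clec4n to Clec7a counts was 0.142, 0.146, 0.151, 0.132 and 0.136 in Suz12 cKO and 0.243, 0.243, 0.240 and 0.242 in wild type. The wild type libraries lay within a narrow range and every Suz12 cKO library lay below it. These genes differ in length (1245 bases for Clec4n and 2277 for Clec7a), for which the ratio is not corrected. Per kb of gene length, Clec4n made up 16.4% to 17.8% of the summed level of the 9 receptors in Suz12 cKO, against 26.1% to 26.6% in wild type. Clec7a made up 61.1% to 68.1% in Suz12 cKO and 58.7% to 60.6% in wild type. The summed level of all 9 was 1172 to 1448 CPM per kb in Suz12 cKO and 1455 to 1977 CPM per kb in wild type.

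Clec4d (MCL) and Clec4e (Mincle) are neighbours that encode receptors for mycobacterial cord factor and signal through Fcer1g. Clec4d had 8.96, 4.98, 20.8, 8.39 and 6.69 CPM in Suz12 cKO and 9.45, 3.60, 7.87 and 11.5 CPM in wild type. Clec4e had 28.9, 20.9, 53.9, 27.9 and 20.6 CPM in Suz12 cKO and 19.3, 15.1, 22.3 and 26.3 CPM in wild type. For both genes the groups overlapped, and library 3 of Suz12 cKO was the highest of all 9. The log2 fold change was 0.30 (SE 0.41) for Clec4d and 0.55 (SE 0.27) for Clec4e, and neither was called. Without library 3 of Suz12 cKO it was -0.15 for Clec4d and 0.25 for Clec4e.

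Markers of other cells were mixed in that library. Its sum of neutrophil markers was 203 CPM, the highest of the 9 libraries, of which S100a8, a calcium-binding protein of neutrophils and monocytes, gave 101 CPM (17.0 to 28.6 CPM in the other Suz12 cKO libraries). Its neutrophil markers Csf3r (72.8 CPM), Cxcr2 (15.7 CPM) and S100a9 (5.45 CPM) were also the highest of all 9. Mmp8 (6.11 CPM) and Ltf (0.08 CPM) were the lowest of the Suz12 cKO libraries. Its sum of monocyte markers, 1781 CPM, was the lowest of all 9, beside 1785 CPM in wild type library 1. Fn1 alone gave 1716 CPM of that sum. Of the other monocyte markers, Ccr2 (6.97 CPM) was the lowest of all 9 there and Ly6c2 (1.36 CPM) the highest of the Suz12 cKO libraries. Among alveolar macrophage markers, Itgax was lowest there (641 CPM, against 1734 to 2556 CPM in the other Suz12 cKO libraries). Chil3 (32245 CPM), Ear1 (952 CPM), Ear2 (4045 CPM) and Atp6v0d2 (1659 CPM) were the highest of the Suz12 cKO libraries, as was the marker sum. The part of other cells in the levels of Clec4d and Clec4e was not tested.

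Clec5a encodes MDL-1, which signals through Tyrobp and Hcst. It had 62.4, 59.2, 55.2, 66.3 and 61.7 CPM in Suz12 cKO and 42.3, 54.0, 40.1 and 51.8 CPM in wild type. The lowest Suz12 cKO library lay just above the highest wild type library. The log2 fold change was 0.37 (SE 0.11). With a library left out it lay between 0.31 and 0.45 and was called in 3 of 9 fits, those without Suz12 cKO library 3 or wild type library 2 or 4. With the planned gene length offset, described with the adaptors, it was 0.08 and was not called.

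The DCIR genes Clec4a1, Clec4a2 and Clec4a3 lie in the Clec4 cluster with the related Clec4a4, and Clec4a2 encodes an inhibitory receptor. Clec4a2 had 96.6, 111, 121, 133 and 119 CPM in Suz12 cKO and 180, 175, 183 and 200 CPM in wild type. Every Suz12 cKO library lay below every wild type library. Its log2 fold change was -0.67 (SE 0.095) and it was called in 9 of 9 fits with a library left out (-0.72 to -0.61).

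Clec4a3 had 121, 144, 189, 161 and 175 CPM in Suz12 cKO and 177, 155, 186 and 197 CPM in wild type. The groups overlapped, and the log2 fold change of -0.18 (SE 0.12) was not called and was 0.05 with the centred gene length offset. The ratio of Clec4a2 to Clec4a3 counts was 0.796, 0.773, 0.643, 0.824 and 0.683 in Suz12 cKO and 1.02, 1.13, 0.984 and 1.01 in wild type, so within a library the ratio separated the groups. Clec4a1 was the least abundant per kb, with 3.87, 7.01, 7.64, 6.27 and 9.57 CPM in Suz12 cKO and 5.52, 3.40, 0.556 and 6.14 CPM in wild type. The lowest wild type value rested on 7 counts in the library of least depth. Its log2 fold change was 0.80 (SE 0.47) and was not called.

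Clec12a encodes MICL, an inhibitory receptor for uric acid crystals. It had 31.2, 34.4, 32.2, 31.4 and 24.3 CPM in Suz12 cKO and 36.5, 26.1, 40.3 and 31.4 CPM in wild type. The groups overlapped, library 5 of Suz12 cKO was the lowest of all, and the log2 fold change of -0.13 (SE 0.14) was not called.

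Per kb of gene length the order in Suz12 cKO was Clec7a (841 CPM per kb), Clec4n (216), Clec4a3 (119), Clec4a2 (44.4), Clec5a (15.96), Clec12a (13.8), Clec4e (12.1), Clec4d (7.45) and Clec4a1 (4.41). The ranges of neighbours in this order did not overlap down to Clec4a2 and Clec5a, and from Clec5a on each overlapped the next. In wild type the order was Clec7a (1048 CPM per kb), Clec4n (464), Clec4a3 (134), Clec4a2 (70.6), Clec12a (15.1), Clec5a (12.3), Clec4e (8.23), Clec4d (6.06) and Clec4a1 (2.51). There Clec12a overlapped Clec5a, Clec4e overlapped Clec4d and Clec4d overlapped Clec4a1. Clec5a and Clec12a stood in the opposite order in the 2 genotypes, within ranges that overlapped in both.

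Levels also varied together between libraries of 1 genotype. After each genotype's mean log2 CPM was removed, Pearson's r over the 9 libraries was 0.96 for Clec4n and Clec7a (Spearman's rho 0.92, and r 0.94 without the 2 libraries farthest from the median of Clec4n). For Clec4d and Clec4e r was 0.93 (rho 0.83, and 0.89 without the 2 farthest), and for Clec4a2 and Clec4a3 it was 0.81 (rho 0.78, and 0.88 without the 2 farthest). The median over all 36 pairs was 0.19, 24 pairs were positive and 6 exceeded 0.5. Clec4n and Clec12a had r 0.65, which was 0.09 without the 2 farthest, and Clec5a and Clec12a had r -0.73, which became -0.42. All pairs share libraries and depth, and these values are a description.

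**Figure D2:**
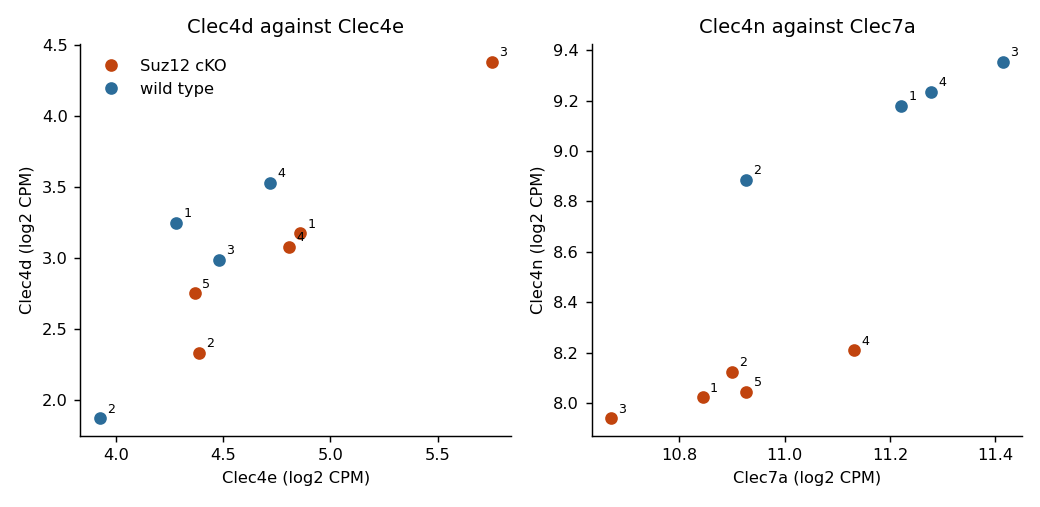
Both panels plot the log2 CPM of 1 receptor against another in the 9 libraries (Suz12 cKO red, wild type blue, numbered by replicate): Clec4d against Clec4e on the left and Clec4n against Clec7a on the right. On the right the genotypes form separate lines, with the 5 Suz12 cKO libraries lower in Clec4n at a given Clec7a level.

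Among 7677 genes whose mean log2 CPM was 4 or more, those that followed Clec7a most closely over the 9 libraries were Ptges3, Gng5 and Cct8, each with r 0.98 after removal of the genotype means. Ptges3 is a cochaperone, Gng5 a G protein gamma subunit and Cct8 a subunit of the chaperonin that folds actin and tubulin. Between the genotypes only Gng5 was called among these, with a log2 fold change of -0.57 (SE 0.092), and it was 0.01 with the centred gene length offset.

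Along the Clec4 cluster, receptors that were called lay beside others that were not. From the Clec4a1 end, Clec4a1 and Clec4a3 were not called, then the non-members Clec4a4 and Clec4b1, and Clec4a2 and Clec4n, were lower in Suz12 cKO, and Clec4d and Clec4e at the far end were not called. Clec4a4, which encodes an inhibitory DCIR receptor, averaged 17.6 ± 2.01 CPM in Suz12 cKO (SD, n = 5) and 28.2 ± 3.48 CPM in wild type (SD, n = 4) (log2 fold change -0.69, SE 0.13, adjusted p = 0.00273, edgeR). It was not called with the centred gene length offset (-0.39). Clec4b1, which encodes the activating receptor DCAR, averaged 23.1 ± 2.66 CPM in Suz12 cKO and 47.4 ± 3.37 CPM in wild type (log2 fold change -1.03, SE 0.12, adjusted p = 9.76e-05, edgeR). With the centred gene length offset Clec4b1 was -0.60 and still called.

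Clec4b2 had 0 or nearly 0 CPM in every library and was not tested. Of the 5 tested neighbours of the Clec4 cluster within 100 kb, 2 were lower (Clec4a4 and Clec4b1) and 0 were higher. Over all tested genes 11% were lower and 8.97% higher. The other tested neighbours, Foxj2, C3ar1 and Necap1, were not called. In the cluster of Clec12a and Clec7a, 7 neighbours were tested and only Olr1, a receptor for oxidised LDL, was called. Olr1 averaged 372 ± 29.97 CPM in Suz12 cKO (SD, n = 5) and 465 ± 16.9 CPM in wild type (SD, n = 4) (log2 fold change -0.32, SE 0.078, adjusted p = 0.010, edgeR). Beside Clec5a the single tested neighbour, Ssbp1, was not called.

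The receptors share few exact stretches of 85 bases with the annotated transcripts of other genes. Stretches that match with differences were not counted. Of the 85-base windows of the annotated transcripts, 2.64% of those of Clec4a2 were shared with Clec4a4, and 11.4% of those of Clec4a4 with Clec4a2. The other 8 receptors shared none with another gene. Only Clec7a overlapped another annotated gene, the long noncoding Gm45969, which was not in the count table, and without a stated strand setting reads in that overlap cannot be assigned.

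**Figure D3:**
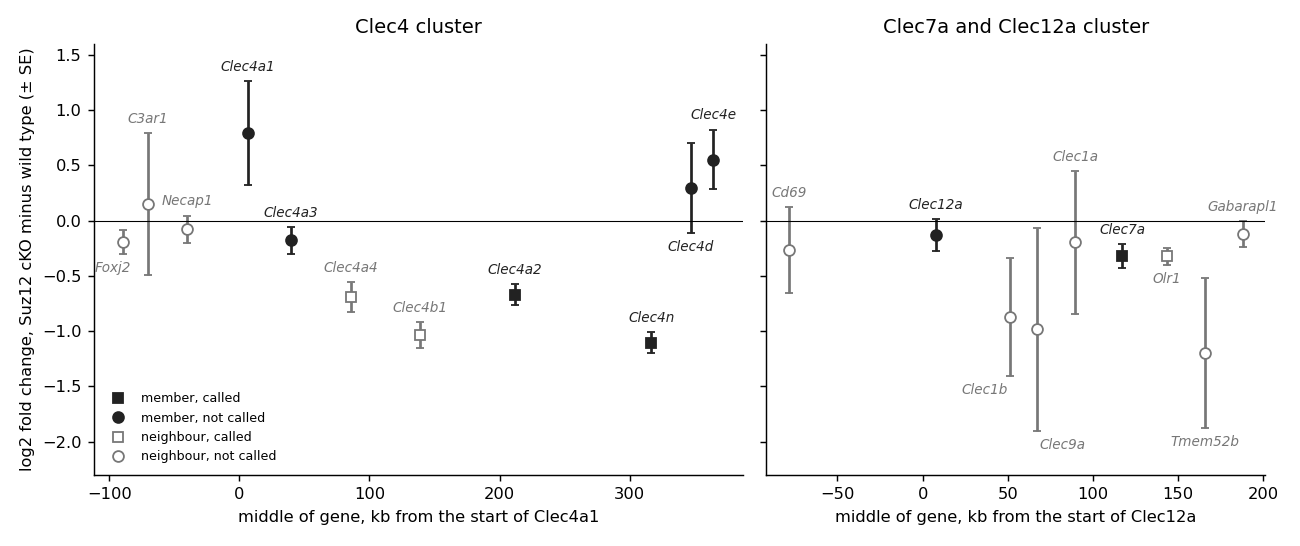
The log2 fold change of Suz12 cKO against wild type (± SE, vertical axis) is plotted against gene position in kb for the tested genes of the Clec4 cluster (left) and of the cluster of Clec12a and Clec7a (right). Filled symbols are the receptors described here, open symbols their neighbours, squares passed the threshold and circles did not. In the left panel Clec4a4, Clec4b1, Clec4a2 and Clec4n lie below 0, between Clec4a3 and Clec4d.

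Over the other C-type lectin genes, 22 of 42 were tested, of which 0 were higher and 5 lower in Suz12 cKO, with a median log2 fold change of -0.28. The 22.7% called lies near the 19.9% of all tested genes. Besides Clec4a4, Clec4b1 and Olr1 these were Cd93 and Cd302. Cd93, a receptor of the same fold, averaged 52.6 ± 4.88 CPM in Suz12 cKO and 114 ± 11.8 CPM in wild type (log2 fold change -1.11, SE 0.097, adjusted p = 1.69e-05, edgeR). Cd302 gave -0.39 (SE 0.12, adjusted p = 0.0403, edgeR) and was not called with the centred gene length offset. With a library left out it was called in 2 of 9 fits (-0.51 to -0.32), those without Suz12 cKO library 3 or wild type library 2. The mannose receptor Mrc1 was not called (0.14, SE 0.068).

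The adaptors and kinases downstream were all measured. Of 23 such genes, 7 were higher and 3 lower in Suz12 cKO, with a median log2 fold change of 0.24. Over all tested genes 8.97% were higher and 11% lower, with a median of 0.04. The 3 lower genes were the adaptors themselves. Tyrobp (DAP12) averaged 824 ± 133 CPM in Suz12 cKO and 1337 ± 138 CPM in wild type (log2 fold change -0.70, SE 0.11, adjusted p = 0.000762, edgeR). Fcer1g, the adaptor of Clec4n, Clec4d and Clec4e, averaged 500 ± 52.2 CPM in Suz12 cKO and 621 ± 36.8 CPM in wild type (log2 fold change -0.31, SE 0.087, adjusted p = 0.0208, edgeR). Hcst (DAP10) gave -0.61 (SE 0.19, adjusted p = 0.0341, edgeR) and is named because the count was small.

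These 3 adaptors are among the shortest genes measured (442 to 658 bases), and the log2 fold changes of all genes followed gene length. The median was -0.42 in the shortest 10% of genes (62 to 970 bases) and 0.14 in the longest 10% (6045 to 83437 bases). A gene length offset, a smooth trend of each library's levels on gene length entered in the fit, was planned as an alternative. With it Tyrobp was still called (-0.43) and Fcer1g (-0.10) and Hcst (-0.27) were not. A centred form, which leaves out the part of the trend common to all genes of a library, was added after the results of the planned one were seen. With the centred form none was called and Fcer1g was 0.18, on the other side of 0. Fcer1g was called in 4 of 9 fits with a library left out (-0.36 to -0.27), and not without Suz12 cKO library 2 or 5 or wild type library 1, 3 or 4.

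Among the kinases and the signalling complex, Malt1, the protease of the Card9 complex, averaged 72.4 ± 11.9 CPM in Suz12 cKO and 45.0 ± 3.86 CPM in wild type (log2 fold change 0.69, SE 0.12, adjusted p = 0.00155, edgeR). It was called under both length offsets. Btk, Plcg2 and Traf6 gave log2 fold changes of 0.41, 0.30 and 0.42 (adjusted p = 0.0124, 0.0125 and 0.0151, edgeR), and each was called with the centred offset and not with the planned one. Prkcd and Syk gave 0.54 and 0.24 and were called under neither offset. With a library left out Prkcd was called in 3 of 9 fits (0.39 to 0.66) and Syk in 3 of 9 (0.22 to 0.28). Card9 (0.12) and Bcl10 (-0.22) were not called. The planned offset shifted the median log2 fold change of all genes to -0.19, and the values with it are read against that median, while the centred offset left it at 0.07.

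Of 9 inhibitory genes, 2 were higher and 0 lower, with a median of 0.02, so 22.2% were called beside 19.9% of all tested genes. Cblb, a ubiquitin ligase that restrains Syk signalling, gave 0.60 (SE 0.12, adjusted p = 0.00317, edgeR), and the phosphatase Ptpn11 gave 0.41 (SE 0.11, adjusted p = 0.0145, edgeR). With the planned length offset neither was called (Cblb 0.22, Ptpn11 0.06), and with the centred one both were. Ptpn6 was not called (0.12, SE 0.096).

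**Figure D4:**
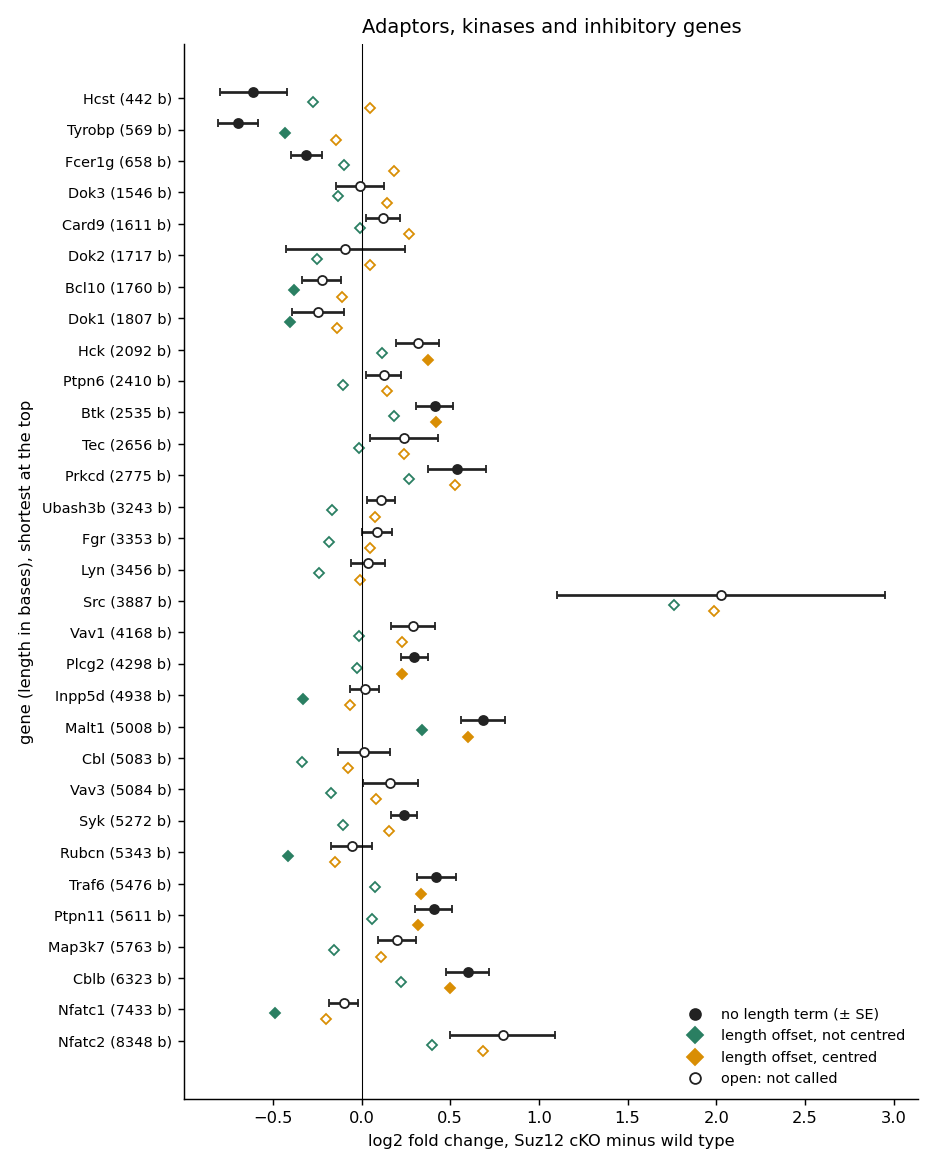
The log2 fold change of Suz12 cKO against wild type (horizontal axis) is plotted for 31 adaptors, kinases and inhibitory genes, from the shortest at the top to the longest. Black circles (± SE) have no length term, green diamonds the planned gene length offset and orange diamonds the centred one, and filled symbols passed the threshold. The 3 short adaptors at the top are lower without a length term and closer to 0 or above it with the centred offset, whereas Malt1 is filled in all 3.

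Of 13 cytokine and other output genes of these receptors, 9 were tested, 2 were higher and 1 was lower in Suz12 cKO, with a median of 0.96. These 3 are 33.3% of the tested genes of the list, beside 19.9% of all tested genes. Il1b, an inflammatory cytokine, had 109, 233, 291, 181 and 203 CPM in Suz12 cKO and 33.6, 25.5, 102 and 43.6 CPM in wild type. All Suz12 cKO libraries lay above all wild type libraries, and the log2 fold change was 2.002 (SE 0.48, adjusted p = 0.0221, edgeR). It was called in 6 of 9 fits with a library left out, and not without Suz12 cKO library 2 or 5 or wild type library 4. Over the 9 fits it lay between 1.78 and 2.58. Il1rn, the antagonist of the same receptor, averaged 266 ± 34.0 CPM in Suz12 cKO and 408 ± 17.7 CPM in wild type (log2 fold change -0.62, SE 0.094, adjusted p = 0.000461, edgeR).

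Egr3, an early response transcription factor, had a median of 2.64 CPM and a highest value of 8.06 CPM in Suz12 cKO and 0 counts in every wild type library. Against a floor of 3 counts over the whole wild type group it was at least 95.5-fold higher in Suz12 cKO, a bound that covers counting error only. Tnf gave -0.34 (SE 0.65) and Cxcl2 0.96 (SE 0.66), and neither was called. Wild type library 3 had the highest Tnf, 235 CPM, and without it the log2 fold change of Tnf was 0.69.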

How the data were processed

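RNA of alveolar macrophages from 5 Suz12 cKO and 4 wild type mice or pools was measured by RNA sequencing. Deposited values are whole-number counts for each gene; featureCounts and mm10 are named in the submitters' processing notes. Not given in the sources used here are the strand setting, the aligner and the annotation release. The counts of the 9 single tables equalled those of the joint table, which was used. Symbols for 25275 of 27179 identifiers, coordinates and promoters came from RefSeq GRCm38.p6, and transcripts from GENCODE.

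The 9 genes and all gene lists were chosen with earlier results of these data known. In R 4.3.3, the counts entered the edgeR 4.0.16 quasi-likelihood test (TMM scaling, filterByExpr by group, Benjamini-Hochberg adjustment over 12840 genes, threshold 0.05). The test was checked on simulated data with log2 changes of 2 in size, larger than those of the 9 receptors. That check does not cover changes of their size. SE was derived from the test statistic. CPM was computed here from TMM-scaled libraries, and log2 CPM used a prior count of 2. Depth was 13.8 to 45.6 M counts per library. Named genes were the 9, Suz12, from each list the called genes (up to 6 by adjusted p) and the 3 others highest per length, the neighbours within 100 kb, and the 3 genes that followed Clec7a best; Hcst, Card9, Bcl10 and the marker genes were named after their values were seen. A gene of the signalling list is not reported here by name, though the counts include it.

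Alternatives were DESeq2 1.42.0, limma voom 3.58.1, RLE scaling, library size alone, no filter, a filter of at least 1 CPM in at least 4 libraries, the replicate number as a block, a loess trend (span 0.5) of each library on log2 gene length as an offset, and each library left out in turn. The length offset as first computed also shifted the median of all genes. A second form, with a robust loess centred on its median over genes in each library, was therefore added after the data and the first form's results were seen, and both are reported.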

Additional observations from a re-analysis of the deposited data

Results flagged for a closer look

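In each genotype, the lowest and highest library of every named gene was compared in log2 CPM with the others of that genotype. The measure was the gap to its nearest neighbour over the whole range of log2 CPM (Dixon's criterion, 95%). Levels are printed in CPM. Of 102 groups, 5 were flagged, and chance flags about 1 in 20. Clec12a had 24.3 CPM in Suz12 cKO library 5 and 31.2 to 34.4 CPM in the other Suz12 cKO libraries. In wild type library 2, Fcer1g had 566 CPM (633 to 646 CPM in the other wild type libraries), Dok3 had 163 CPM (124 to 128) and Clec4b1 had 42.4 CPM (48.3 to 49.6). Ssbp1 had 16.4 CPM in Suz12 cKO library 4 and 13.37 to 14.04 CPM in the others.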

How the results depend on the processing

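Clec4n and Clec4a2 were called lower under every alternative run. The count of receptors called was 4, and 2 to 4 with 1 library left out: it was 2 (0 higher) without Suz12 cKO replicate 1, 2 or 5 or without wild type replicate 1 or 3, where Clec5a and Clec7a were not called. It was 3 with library size alone, the stricter filter and both length offsets. The count over the signalling, inhibitory and output genes was 15, and 9 to 16 with 1 library left out (9 without Suz12 cKO replicate 2 or 5 or wild type replicate 4). That over the other lectins was 5, and 4 to 5 with 1 library left out. The count over all genes was 2561, and 1846 to 2955 with 1 library left out.

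The gene length offset was computed in 2 forms, the second added after the first had been seen. With the planned form 3590 genes were called (472 higher, 3118 lower), Clec4n, Clec4a2 and Clec7a were called lower among the receptors and Clec5a was not called, and 7 other lectins were lower. With the centred form 2073 were called (1190 higher, 883 lower), Clec5a was called higher and Clec7a was not called, and 3 other lectins were called. Among values called on either side, signs changed for Plcg2 (-0.0227), Syk (-0.11) and Mrc1 (-0.21) with the planned form and for Fcer1g (0.18) and Gng5 (0.0062) with the centred form. Library size alone gave 1960 higher and 1013 lower genes and a median log2 fold change of 0.15; without the low-count filter the median was 0.15. The causes were not tested further.

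The deviations of same-numbered libraries from their genotype means had r 0.04, 0.03, -0.06 and 0.11. Differently numbered libraries were not compared, so these values cannot tell whether the numbers stand for a pairing. With the replicate block 1852 genes were called, 1789 of them also without it, and 3 receptors (1 higher, 2 lower), with Clec7a no longer called (-0.32). Of 917 values of named genes under the alternatives, 879 kept their sign and 38 changed it. Of these 38, 5 involved a call and 33 did not. Among the 879 that kept their sign, 63 lost the call and 13 gained one. The 4 to 5 libraries per group and the low counts of Clec4a1 and Clec4d limit what could be called.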
